A study of Mus musculus with 6 samples.

Results

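Hearts carry bicarbonate through a small set of membrane proteins, and the transcripts of 5 of them were followed here in hearts from mice with a knockout of the B and C variants of the sodium bicarbonate cotransporter NBCe1. The genes were *Slc4a4*, *Slc4a7*, *Slc4a3*, *Slc4a2* and *Slc26a6*, which are 5 of the 16018 genes in the deposited RNAseq table, and they were taken by matching the table's Ensembl identifiers to these symbols. The rule used gene names and no measured value, but the carriers were chosen with earlier results of these data known. Total RNA came from hearts of 3 female NBCe1-B/C KO mice and 3 female WT mice aged 4–5 weeks, 1 library per mouse. Both groups descend from crosses of heterozygous parents on the C57BL/6J background. The KO is congenital and covers every organ, and the NBCe1-A variant of the kidney is kept. The hearts hold several cell types, and in such tissue fewer cells of a type and less RNA per cell cannot be told apart.

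Bicarbonate carriers set the pH inside a heart muscle cell by moving base across its membrane in opposite directions. Sodium-coupled importers bring bicarbonate in and so extrude acid, which is the role of NBCe1, the electrogenic cotransporter encoded by *Slc4a4*, and of NBCn1, the electroneutral cotransporter encoded by *Slc4a7*. Chloride-bicarbonate exchangers send base out in trade for chloride and so load the cell with acid, and in the heart these are AE3 (*Slc4a3*), AE2 (*Slc4a2*) and the SLC26 exchanger encoded by *Slc26a6*. Because NBCe1 moves more base per sodium ion than NBCn1 does, a shift between these carriers would change how much sodium enters with each base equivalent. The comparison of KO with WT therefore asks whether the other carriers shift where *Slc4a4* is low.

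*Slc4a4* (ENSMUSG00000060961) lies on the forward strand of chromosome 5 of GRCm38 from 88886818 to 89239653 and has separate starts for its variants in the GENCODE M21 annotation. A transcript from the upstream start has 26 exons and encodes 1079 residues, the length of NBCe1-B, and translation begins in exon 2 (88934749 to 88934822). A transcript from the downstream start has 22 exons and encodes 1035 residues, the length of NBCe1-A. Its first exon (89027966 to 89028428) begins 141.1 kb downstream of the first upstream exon and holds the start codon at 89028172. The first 85 codons of the upstream product and the first 41 codons of the downstream product are their own, and the remaining 994 codons are the same. The own coding stretches are shown because they are the only coding bases that differ between the 1079-residue and the 1035-residue products, with the start codon in capitals.
upstream start (NBCe1-B, 255 coding bases): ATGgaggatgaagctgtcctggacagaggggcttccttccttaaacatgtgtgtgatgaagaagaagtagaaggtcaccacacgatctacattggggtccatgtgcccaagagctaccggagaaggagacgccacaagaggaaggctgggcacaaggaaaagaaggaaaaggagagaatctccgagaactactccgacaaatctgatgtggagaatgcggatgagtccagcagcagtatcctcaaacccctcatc
downstream start (NBCe1-A, 123 coding bases): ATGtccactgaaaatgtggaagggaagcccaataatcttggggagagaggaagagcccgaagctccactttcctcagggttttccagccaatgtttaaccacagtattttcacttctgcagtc
The deposited table gives 1 value per gene, so reads from both stretches and from the shared exons are summed in every *Slc4a4* value below.

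The 6 libraries held between 41364857 and 49100802 reads on genes, with 42619258 to 49100802 in KO and 41364857 to 42037397 in WT. Each gene's value is a normalized count, a read count brought to a common scale by the authors with 1 size factor per library. Behind the values of the 5 carriers stood between 266 and 11809 reads per library, so that counting error alone was between 0.92% and 6.13% of a value. Markers of heart muscle were abundant: all 6 of *Myh6*, *Actc1*, *Tnnt2*, *Ryr2*, *Myl2* and *Tnni3* were in the table, with a summed normalized count of 2296569 to 2556709 in KO and 1941211 to 2073247 in WT. The groups did not overlap in this sum, although 3 of these 6 markers had a log2 fold change above 0 and their median was 0.03. Nor did they overlap in the sum of the 4 endothelial markers (35095 to 37921 in KO and 32247 to 34335 in WT), of which 4 had a log2 fold change above 0. Among single genes, 15.6% of all genes had each KO library above each WT library. The summed markers of fibroblasts, mural cells, macrophages, atrial myocytes, adipocytes, lymphocytes and erythroid cells overlapped between the groups. Of their single markers, the log2 fold change was above 0 in 4 of 4 for mural cells and in 2 of 4 for fibroblasts and for macrophages. It was above 0 in 1 of 3 for lymphocytes, 0 of 4 for atrial myocytes, 0 of 4 for adipocytes and 0 of 5 for erythroid cells. The medians of these last 3 types were -0.48, -1.11 and -0.45. Of the markers of the kidney's proximal tubule, where NBCe1-A is made, *Slc34a1* and *Slc5a2* were not analysed here, and *Lrp2* was counted at 26.8, 50.7 and 45.2 in KO and at 6.15, 21.8 and 81.5 in WT replicates 1, 2 and 3. What part these differences have in the values of the carriers was not tested.

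The targeted gene did not follow the labels in 1 library. *Slc4a4* was counted at 264, 944.8 and 268.7 in the libraries labelled KO replicates 1, 2 and 3. The WT libraries, in the same order, were at 675.1, 822.2 and 788.8. In KO replicates 1 and 3 it stood at 34.6% and 35.3% of the WT mean, whereas the library labelled KO replicate 2 stood at 124% of it, above each WT library. The groups thus overlapped, and the mean was 493 ± 391.7 in KO and 762 ± 77.1 in WT (SD, n = 3 per group). The log2 fold change of KO against WT was -0.90 (SE 0.42, 95% confidence interval -1.86 to 0.06), with an adjusted p of 0.239 from limma with Benjamini-Hochberg adjustment over 16016 genes. The exact two-sided permutation test over the 6 libraries returned p = 0.4, and with 3 libraries against 3 it cannot go below 0.1. Without the library labelled KO replicate 2, the log2 fold change was -1.51 (95% confidence interval -1.79 to -1.23, adjusted p = 0.0121 from limma). It was -0.59 without KO replicate 1 (adjusted p = 0.521 from limma) and -0.60 without KO replicate 3 (adjusted p = 0.439 from limma). Each library was left out in turn, but the library labelled KO replicate 2 is set apart here because of its *Slc4a4* value. The interval and p of *Slc4a4* without that library follow in part from this choice and are no independent test. Every comparison below is of libraries as labelled, and the values of the carriers and lists without the library labelled KO replicate 2 are given beside it. The reads left in KO replicates 1 and 3, at 266 and 303, cannot be assigned to a variant.

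Across all genes, no difference between KO and WT passed the threshold after adjustment in the test used here. The study itself reports significantly different genes in these data, by a test that its methods do not describe, and count models were not run here. By limma with Benjamini-Hochberg adjustment, 0 genes of 16016 (0%) passed an adjusted p of 0.05, and so 0 of the 5 carriers did. The lowest adjusted p over all genes was 0.0815 from limma. An unadjusted p under 0.05 was found for 23.5% of all genes, 13% with the higher and 10.5% with the lower level in KO, and for 1 of the 5 carriers, *Slc4a7*, which was higher. The libraries labelled KO were all above WT in 15.6% of all genes and in 1 carrier, again *Slc4a7*, and all below WT in 14.6% of all genes and in 0 carriers. The median log2 fold change was 0.06 over the 5 carriers and -0.0043 over all genes. Without the library labelled KO replicate 2, 3 genes (0.0187%) had an adjusted p under 0.05. Of them, 1 was *Slc4a4*, the gene by whose value that library was set apart. The plot of normalized counts by library shows the 5 carriers side by side.

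**Figure D1:**
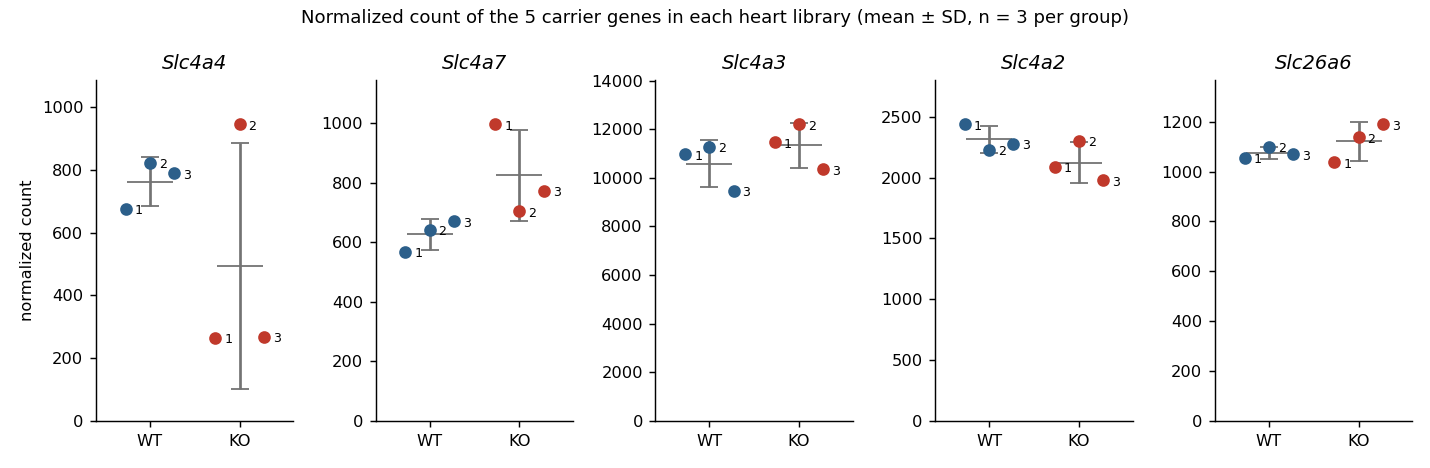
Normalized counts (vertical axes, starting at 0) of the 5 bicarbonate carrier genes in WT (blue) and KO (red) heart libraries, with replicate numbers beside the points and the mean ± SD of 3 libraries in grey. *Slc4a4* is at 264 and 268.7 in KO replicates 1 and 3 and at 944.8 in the library labelled KO replicate 2, *Slc4a7* is higher in each KO library than in each WT library, and the groups of the other 3 genes overlap.

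*Slc4a7* (ENSMUSG00000021733, chromosome 14, 14702279 to 14799940, forward strand) encodes NBCn1, the other sodium-coupled importer. Its normalized count was 996.4, 704 and 773.3 in KO replicates 1, 2 and 3, against 568.6, 642.4 and 670.2 in WT replicates 1, 2 and 3. Each KO library was above each WT library, with KO replicate 1 farthest away. The library labelled KO replicate 2, in which *Slc4a4* was not low, was the KO library nearest to WT, at 112% of the WT mean, beside 159% and 123% in KO replicates 1 and 3. The mean was 825 ± 153 in KO and 627 ± 52.6 in WT (SD, n = 3 per group). The log2 fold change was 0.38 (SE 0.13, 95% confidence interval 0.08 to 0.68), with an unadjusted p of 0.0191 and an adjusted p of 0.136 from limma. The exact two-sided permutation test gave p = 0.1, its smallest value. Without the library labelled KO replicate 2, the log2 fold change was 0.49 (adjusted p = 0.135 from limma), and without KO replicate 1 it was 0.24 (adjusted p = 0.308 from limma).

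The difference in *Slc4a7* moved with transcript length and with the choice of scale. Longer genes tended to have higher log2 fold changes in this table, with a Spearman's rho of 0.45 between transcript length and fold change over 15978 genes, a description across genes that are not independent of each other. *Slc4a7*, with a longest transcript of 8132 nucleotides against a median of 3188 over all genes, is a long gene. After a correction of each library for length and GC content, its log2 fold change was 0.19 (95% confidence interval -0.06 to 0.45, adjusted p = 0.46 from limma), and the groups overlapped. *Gapdh* and *Polr2a*, the control genes of the study's PCR assays, gave opposite directions. *Polr2a*, the gene of the polymerase II catalytic subunit, was counted at 2504, 2329 and 2238 in KO and at 1387, 1581 and 1598 in WT replicates 1, 2 and 3, whereas *Gapdh*, a glycolytic enzyme, overlapped between the groups (102271 to 125493 in KO and 110066 to 120411 in WT).

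Relative to *Gapdh*, *Slc4a7* stood at 1.47, 1.27 and 1.31 times the WT level in KO replicates 1, 2 and 3, each above the WT libraries at 0.87, 1.08 and 1.06. Relative to *Polr2a*, it stood at 0.97, 0.73 and 0.84 times the WT level, each below the WT libraries at 1.00, 0.99 and 1.02. Relative to the average of both, it stood at 1.19, 0.97 and 1.05 in KO and at 0.93, 1.03 and 1.04 in WT, and the groups overlapped (log2 difference 0.09, exact two-sided permutation test, p = 0.4). The direction in *Slc4a7* therefore held relative to *Gapdh* and to the size factors, and turned relative to *Polr2a*. *Polr2a* itself had a log2 fold change of 0.63 (adjusted p = 0.0815 from limma). Relative to it, all 5 carriers were lower in each KO library than in each WT library. The log2 differences were -1.53 for *Slc4a4*, -0.25 for *Slc4a7*, -0.53 for *Slc4a3*, -0.76 for *Slc4a2* and -0.57 for *Slc26a6*. How many of all genes were lower in this way relative to *Polr2a* alone was not determined. Scaled to the average of both control genes, 7887 of 16016 genes had each KO library below each WT library. Only 167 had each KO library above. The order of the carriers relative to *Polr2a* is therefore not read as particular to them.

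**Figure D2:**
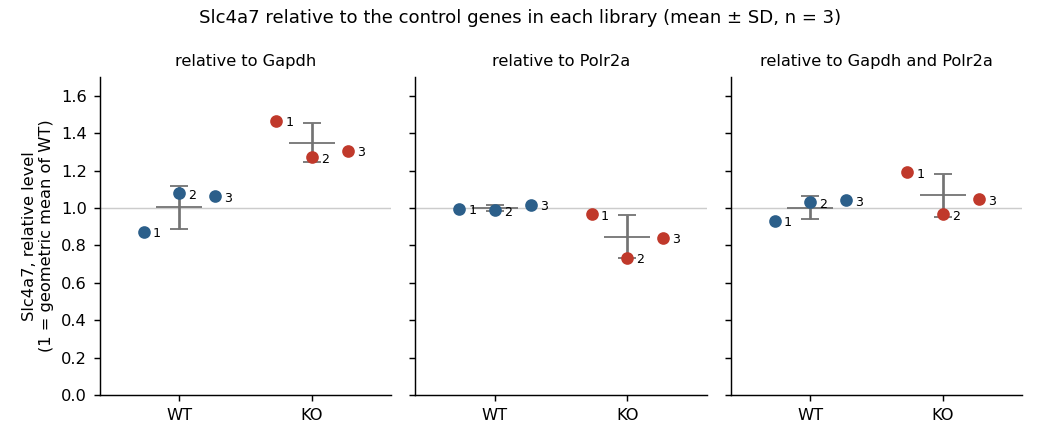
*Slc4a7* relative to *Gapdh*, to *Polr2a* and to the average of both (vertical axis, ratio to the geometric mean of WT) in each WT (blue) and KO (red) library, with the mean ± SD of 3 libraries in grey. The KO libraries lie above WT relative to *Gapdh* at 1.27 to 1.47, below WT relative to *Polr2a* at 0.73 to 0.97, and overlap with WT relative to both, at 0.97 to 1.19.

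*Slc4a3* (ENSMUSG00000006576, chromosome 1, 75546266 to 75562172, forward strand) encodes AE3, the anion exchanger of excitable tissues. Its normalized count was 11459, 12208 and 10350 in KO replicates 1, 2 and 3, against 10979, 11290 and 9474 in WT replicates 1, 2 and 3. The groups overlapped, and the spread within either group was larger than the difference between them. The mean was 11339 ± 934 in KO and 10581 ± 971 in WT (SD, n = 3 per group). The log2 fold change was 0.10 (SE 0.09, adjusted p = 0.538 from limma). Its 95% confidence interval ran from 0.931 to 1.23 times the WT level. The log2 fold change was 0.05 without the library labelled KO replicate 2. The sign depended on the processing, with -0.065 after the length and GC correction and -0.19 relative to *Gapdh* and *Polr2a*.

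*Slc4a2* (ENSMUSG00000028962, chromosome 5, 24423837 to 24440950, forward strand) encodes AE2, the exchanger found in most tissues. Its normalized count was 2086, 2303 and 1976 in KO replicates 1, 2 and 3, against 2438, 2227 and 2278 in WT replicates 1, 2 and 3. KO replicates 1 and 3 were below each WT library, whereas the library labelled KO replicate 2 lay among the WT libraries. The mean was 2122 ± 167 in KO and 2314 ± 110 in WT (SD, n = 3 per group). The log2 fold change was -0.13 (SE 0.08, adjusted p = 0.351 from limma), with a 95% confidence interval from 0.812 to 1.03 times the WT level. It was -0.19 (adjusted p = 0.234 from limma) without the library labelled KO replicate 2. Relative to the average of *Gapdh* and *Polr2a*, it was -0.42 with an adjusted p of 0.0195 from limma, a scale on which 29.4% of all genes passed 0.05 and the median log2 fold change of all genes was -0.30. Relative to that median, the difference is about the size seen on the deposited scale. The last exons of *Slc4a2* overlap those of *Fastk* on the reverse strand, and since the counting is not stated to use strand, reads there cannot be told apart.

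*Slc26a6* (ENSMUSG00000023259, chromosome 9, 108853283 to 108913049, forward strand) encodes an exchanger of chloride for bicarbonate, oxalate and other anions. Its normalized count was 1038, 1137 and 1190 in KO replicates 1, 2 and 3, against 1055, 1100 and 1070 in WT replicates 1, 2 and 3. The WT libraries were close together, and the KO libraries reached to both sides of them. The mean was 1122 ± 77.2 in KO and 1075 ± 22.7 in WT (SD, n = 3 per group). The log2 fold change was 0.06 (SE 0.08, adjusted p = 0.681 from limma), with a 95% confidence interval from 0.924 to 1.17 times the WT level. It was likewise 0.05 without the library labelled KO replicate 2. The exact two-sided permutation test gave p = 0.4 for *Slc4a3*, 0.3 for *Slc4a2* and 0.4 for *Slc26a6*, and a p over the threshold does not show that KO and WT levels were alike.

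**Figure D3:**
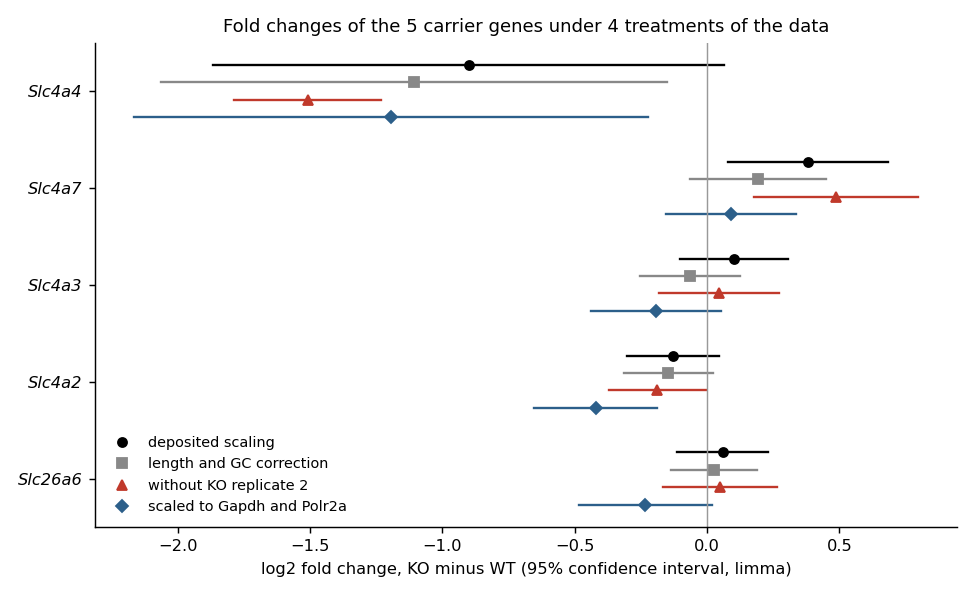
Log2 fold changes of the 5 carrier genes, KO minus WT (horizontal axis), with 95% confidence intervals from limma, for the deposited scaling (black), after the length and GC correction (grey), without the library labelled KO replicate 2 (red) and scaled to *Gapdh* and *Polr2a* (blue). *Slc4a4* moves from -0.90 to -1.51 without the library labelled KO replicate 2, *Slc4a7* moves from 0.38 to 0.19 and 0.09 under the correction and the control-gene scale, and the intervals of *Slc4a3* and *Slc26a6* include 0 throughout.

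Levels of different genes were compared per kilobase of merged exons, since a longer transcript collects more reads. In WT hearts, *Slc4a3* led with 1230 ± 113 normalized counts per kilobase, followed by *Slc4a2* with 278 ± 13.3, *Slc26a6* with 199 ± 4.19, *Slc4a4* with 70.5 ± 7.13 and *Slc4a7* with 41.2 ± 3.46 (SD, n = 3 each). Between neighbours in this order, the ranges over the WT libraries did not overlap. Among the 15980 genes with a known exon length, the WT level of *Slc4a3* ranked 1322 from the top, that of *Slc4a2* 4997, that of *Slc26a6* 6174, that of *Slc4a4* 9778 and that of *Slc4a7* 11274. In KO hearts, the first 3 places were the same in each library, with *Slc4a3* at 1204 to 1420, *Slc4a2* at 237 to 277 and *Slc26a6* at 192 to 220 normalized counts per kilobase.

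The last places differed among the KO libraries. *Slc4a4* stood at 24.4, 87.4 and 24.8 normalized counts per kilobase in KO replicates 1, 2 and 3, and *Slc4a7* at 65.5, 46.3 and 50.9. *Slc4a7* was thus above *Slc4a4* in KO replicates 1 and 3, and below it in the library labelled KO replicate 2 and in each WT library. With the longest transcript in place of merged exons, this held in each of the 6 libraries, but *Slc4a7* was nearer to *Slc4a4* in WT, at 69.9 to 82.4 beside 85.1 to 104 normalized counts per kilobase. Merged exons count every annotated exon of a gene, and for *Slc4a7* they add up to 15205 nucleotides against 8132 in its longest transcript, so levels between these 2 genes depend on which length fits the transcripts of the heart.

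As shares of the 5 carriers per kilobase, *Slc4a3* made up 67.6% ± 2.08 in WT and 70.1% ± 1.17 in KO (SD, n = 3 per group). *Slc4a4* made up 3.35%, 4% and 4.32% in WT replicates 1, 2 and 3, beside 1.31%, 4.28% and 1.43% in KO replicates 1, 2 and 3. The share of *Slc4a4* differed by -1.55 percentage points between KO and WT (exact two-sided permutation test, p = 0.3, adjusted p = 0.4 over the 4 ratios and shares tested), and by -2.52 points without the library labelled KO replicate 2. It differed by -1.03 points without KO replicate 1 and by -1.09 points without KO replicate 3. *Slc4a7* made up 2%, 2.22% and 2.61% in WT and 3.51%, 2.27% and 2.93% in KO replicates 1, 2 and 3.

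**Figure D4:**
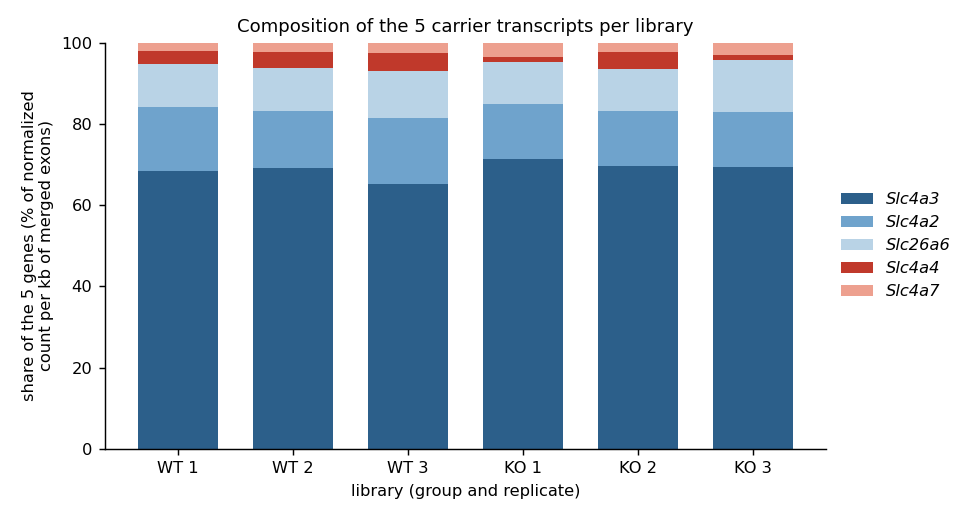
Share of each carrier gene in the summed normalized count per kilobase of merged exons of the 5 genes (vertical axis, percent) in each library. *Slc4a3* makes up 65.2% to 71.5% of every bar, and the dark red segment of *Slc4a4* shrinks to 1.31% and 1.43% in KO replicates 1 and 3 but is 4.28% in the library labelled KO replicate 2.

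Ratios within a library do not depend on the scaling between libraries. The ratio of *Slc4a7* to *Slc4a4* in normalized counts was 0.842, 0.781 and 0.85 in WT replicates 1, 2 and 3, beside 3.77, 0.745 and 2.88 in KO replicates 1, 2 and 3. The library labelled KO replicate 2 had the lowest ratio of the 6 libraries, and KO replicates 1 and 3 were above each WT library. The mean log2 ratio was 1.01 ± 1.25 in KO and -0.28 ± 0.07 in WT (SD, n = 3 per group), a difference of 1.29 (exact two-sided permutation test, p = 0.4, adjusted p = 0.4). Without the library labelled KO replicate 2, the difference was 2.00 (exact two-sided permutation test, p = 0.2, the smallest that 2 libraries against 3 allow). It was 0.83 without KO replicate 1 and 1.03 without KO replicate 3.

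The ratio of *Slc4a3* to *Slc4a2*, the cardiac AE3 over AE2, was 5.32, 5.13 and 5.07 per kilobase in KO replicates 1, 2 and 3, against 4.36, 4.91 and 4.03 in WT replicates 1, 2 and 3. Each KO library was above each WT library. The log2 ratio differed by 0.23 (exact two-sided permutation test, p = 0.1, the smallest possible, and adjusted p = 0.4 over the 4 ratios and shares). After the length and GC correction, the difference was 0.08 (exact two-sided permutation test, p = 0.6), and without the library labelled KO replicate 2 it was 0.23. *Slc4a3* has the longer transcript of the pair, at 7182 against 4264 nucleotides.

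The acid extruders *Slc4a4* and *Slc4a7* together reached 89.9, 134 and 75.7 normalized counts per kilobase in KO replicates 1, 2 and 3, against 99.8, 118 and 117 in WT replicates 1, 2 and 3. The acid loaders *Slc4a3*, *Slc4a2* and *Slc26a6* together reached 1661 to 1907 in KO and 1573 to 1784 in WT. The log2 ratio of extruders to loaders differed by -0.26 between KO and WT (exact two-sided permutation test, p = 0.3, adjusted p = 0.4), and by -0.44 without the library labelled KO replicate 2. It was -0.13 without KO replicate 3, -0.17 without WT replicate 3, and -0.15 with the longest transcript in place of merged exons (exact two-sided permutation test, p = 0.5). In KO replicates 1 and 3, the count of *Slc4a7* per kilobase above the WT mean was smaller than the shortfall of *Slc4a4*. Normalized counts measure transcripts, and neither protein nor transport was measured here.

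The other genes of the SLC4 and SLC26 families, which carry bicarbonate, sulfate and other anions in various organs, ranged from 5.95 to 1744 normalized counts. The list of 17 such genes also holds the adaptor *Slc4a1ap*, which is no carrier. Of these 17, 12 were tested, *Slc4a1ap* among them, and *Slc4a5*, *Slc4a9*, *Slc4a10*, *Slc26a5* and *Slc26a9* were not analysed here. None of the 12 passed an adjusted p of 0.05 by limma with Benjamini-Hochberg adjustment, 1 was higher at an unadjusted p under 0.05, where 13% of all genes were, and 0 were lower, where 10.5% were. Their median log2 fold change was -0.02. The libraries labelled KO were all above WT in 1 of the 12, beside 15.6% of all genes, and all below WT in 1, beside 14.6%. Leaving out the library labelled KO replicate 2, 0 of the 12 passed the adjusted threshold by limma. At an unadjusted p under 0.05, 1 was then higher, where 11.9% of all genes were, and 1 lower, where 1429 of all 16016 genes were.

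The genes of this list whose groups did not overlap were *Slc26a2* and *Slc26a10*, 2 of 12, a share no larger than that over all genes. *Slc26a2*, a sulfate transporter, was counted at 736, 655 and 600 in KO and at 493, 484 and 555 in WT replicates 1, 2 and 3, with each KO library above each WT library. Its log2 fold change was 0.38 (SE 0.10, adjusted p = 0.0958 from limma), and 0.18 after the length and GC correction. *Slc26a10* was counted at 1411, 1651 and 1551 in KO and at 1660, 1744 and 1693 in WT replicates 1, 2 and 3, with each KO library below each WT library. Its log2 fold change was -0.15 (SE 0.08, adjusted p = 0.278 from limma), and the groups overlapped after the length and GC correction.

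*Slc4a8* encodes the sodium-driven chloride-bicarbonate exchanger NDCBE, another route for sodium-coupled base import. It was counted at 237, 88.9 and 91.3 in KO replicates 1, 2 and 3, against 100.4, 67.6 and 80.4 in WT replicates 1, 2 and 3. KO replicate 1 stood apart from the other 5 libraries, among which the groups overlapped, and the log2 fold change was 0.60 (SE 0.36, adjusted p = 0.35 from limma). *Slc4a7* was also highest in KO replicate 1. The longest exact run that the longest coding transcripts of *Slc4a7* and *Slc4a8* have in common is 29 bases, beside reads of 150 bases. Other transcripts were not compared, and whether reads were placed on the wrong gene was not tested. Among the pairs compared, which were the carriers with each other and with *Slc4a1*, *Slc4a5*, *Slc4a8* and *Slc4a10*, this was the longest.

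*Slc4a1* encodes AE1, the band 3 exchanger of red blood cells. It was counted at 74.4, 75.5 and 182 in KO replicates 1, 2 and 3, against 70.7, 146 and 48.5 in WT replicates 1, 2 and 3. The 2 highest libraries, KO replicate 3 and WT replicate 2, were also the 2 highest in the summed count of the 5 erythroid markers, at 133453 and 116933 against 29389 to 68648 in the other libraries. *Slc4a1ap*, an adaptor of *Slc4a1* and no carrier, overlapped between the groups at 802 to 909 in KO and 728 to 833 in WT.

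The chloride exchanger of the gut, *Slc26a3*, ran from 27.8 to 89.6 in KO and from 6.15 to 66 in WT, and the sulfate transporter *Slc26a11* from 187 to 257 in KO and from 173 to 264 in WT. *Slc4a11*, *Slc26a1*, *Slc26a4*, *Slc26a7* and *Slc26a8* had between 5.95 and 36.2 normalized counts in each library and overlapped between the groups.

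**Figure D5:**
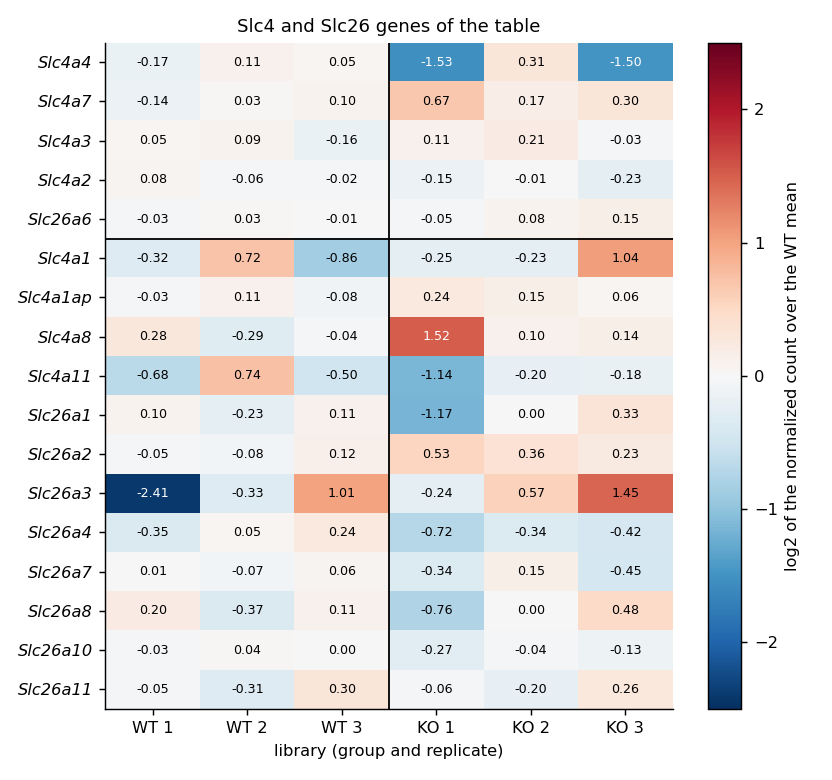
Log2 of the normalized count over the WT mean (colour and printed value) for the 5 carriers (above the line) and the 12 other genes of the SLC4 and SLC26 list in the table, the adaptor gene *Slc4a1ap* among them (rows) in each library (columns). *Slc4a4* is at -1.53 and -1.50 in KO replicates 1 and 3 and at 0.31 in the library labelled KO replicate 2, *Slc4a8* stands out at 1.52 in KO replicate 1, and *Slc26a2* is higher in each KO library.

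Genes that work beside the carriers, among them lactate transporters, carbonic anhydrases and regulators of NBCe1, were described as a list of 22, of which 21 were tested. The list was chosen with earlier results of these data known, so counts over it are a description and no independent test. None passed an adjusted p of 0.05 by limma with Benjamini-Hochberg adjustment. An unadjusted p under 0.05 was found for 8 of the 21, all higher in KO, where 13% of all genes were higher in KO at that threshold. After the length and GC correction it was found for 6 of 21, all higher, where 7.75% of all genes were. The median log2 fold change of the list was 0.11, and 0.14 after the correction. Leaving out the library labelled KO replicate 2, 8 of 21 were higher at an unadjusted p under 0.05, where 11.9% of all genes were, and 0 passed the adjusted threshold by limma. Scaled to the average of *Gapdh* and *Polr2a*, 1 of the 21 was higher and 6 were lower at an unadjusted p under 0.05. Of all 16016 genes, 102 were higher and 6988 lower on that scale at this threshold. The median log2 fold change there was -0.19 over the list and -0.30 over all genes. On that scale 3 of 21 passed an adjusted p of 0.05 by limma, beside 29.4% of all genes: *Slc8a1* was higher, and *Bsg* and *Atp6v0d1* were lower, by log2 fold changes of -0.41 and -0.39.

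*Slc8a1*, which encodes the sodium-calcium exchanger NCX1, was counted at 10258, 7248 and 6793 in KO and at 4800, 5538 and 5055 in WT replicates 1, 2 and 3. Each KO library was above each WT library, by a log2 fold change of 0.64 (SE 0.14, adjusted p = 0.0815 from limma). After the length and GC correction it was 0.38 (adjusted p = 0.284 from limma). Relative to the average of *Gapdh* and *Polr2a*, the log2 fold change of *Slc8a1* was 0.34 (adjusted p = 0.0434 from limma). Without the library labelled KO replicate 2 it was 0.70 on the deposited scale (adjusted p = 0.128 from limma).

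Each carrier was also set beside the genes whose log2 values followed it most closely over the 6 libraries, among the 11932 genes that averaged 100 normalized counts or more. The likeness is a description over 6 libraries with no test, and the genes share each library's depth and scaling. The genes named were picked for the highest r among many, so a similar order of libraries follows from the choice. *Slc4a4* was followed by *Phf10* (Pearson's r = 0.99), *4933434E20Rik* (0.984) and *Hcn2* (0.982). *Hcn2*, a pacemaker channel gene, was counted at 1199, 1974 and 1209 in KO and at 1599, 1874 and 1683 in WT replicates 1, 2 and 3, so that it was lowest in KO replicates 1 and 3 and highest in the library labelled KO replicate 2, as *Slc4a4* was. *Phf10* was likewise highest in the library labelled KO replicate 2 and lowest in KO replicates 1 and 3, over a far smaller span, from 2317 to 2477.

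*Slc4a7* was followed by *Atp11b*, *Esrrg* and *Cse1l* (Pearson's r = 0.997, 0.996 and 0.996). *Esrrg*, which encodes a nuclear receptor of oxidative tissues, was counted at 2456, 1684 and 1809 in KO and at 1233, 1495 and 1546 in WT replicates 1, 2 and 3. *Slc4a3* was followed by *Lman2*, *Elavl1* and *Adamtsl2* (r = 0.984 to 0.995), *Slc4a2* by *Fam78b*, *Trp53i11* and *Snx1* (r up to 0.979), and *Slc26a6* by *Taok3*, *Fyb* and *Kif2a* (r = 0.97 to 0.978). No gene appeared beside more than 1 carrier.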

How the data were processed

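Whole-heart RNAseq of 3 KO and 3 WT mice was analysed from the authors' deposited table, whose values are a normalized signal per gene: read counts that the authors brought to a common scale with 1 size factor per library, with no adjustment for gene length. The labels describe total RNA from a column kit and paired reads of 150 bases on an Illumina HiSeq. The submitters' processing notes name Trimmomatic 0.36, STAR 2.5.2b, featureCounts, Subread 1.5.2, DESeq2 and GRCm38, and the treatment of strand and of shared reads is not given in the sources used here. Groups and replicate numbers were taken from the sample titles, and columns were matched to samples by animal name. In every library, all values were whole multiples of 1 step within 0.1 read, which gave the reads quoted. Any pair of libraries had equal reads in 0.887% to 1.4% of genes, so all 6 were kept. The labels do not name litters or batches.

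Symbols, positions and lengths came from GENCODE M21 (GRCm38) for 15980 of 16018 identifiers. Values were compared as log2(normalized count + 1) with limma 3.58.1 (R 4.3.3), with a variance trend, two-sided, with Benjamini-Hochberg adjustment at 0.05 across the 16016 genes that averaged 10 or more. Fold changes on this scale understate those of low genes. Single values and ratios were compared with exact two-sided permutation tests in scipy 1.17.1, with adjustment over the 4 ratios and shares. The length and GC correction removed from each library a smooth trend in both properties, fitted as splines with 5 degrees of freedom each to its differences from the mean of every gene. The limma fit was also run on simulated counts that held no length or GC trend, and its outcome there is not reported here. The carriers and gene lists were chosen with earlier results of these data known. The genes named are the 5 carriers, every family gene in the table, list genes past the threshold or otherwise *Slc8a1* (another gene that this rule names is not reported here), the PCR control genes, and the 3 genes most like each carrier. Alternatives were pseudocounts of 0.5 and 5, no filter or a mean of at least 50, other scalings, no variance trend, the length and GC correction, another gene length, a replicate block and each library left out.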

Additional observations from a re-analysis of the deposited data

How the results depend on the processing

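Of 171 values under alternatives, for 13 results, 159 kept their direction and their side of the threshold, with counts within 1.5 times the reported one, though sizes moved (*Slc4a7* from 0.38 to between 0.09 and 0.49). For the 4 ratios and shares, the exact test cannot go below p = 0.1. Their side of the threshold was thus fixed in advance, and only their direction could change. In the limma fits, 0 of all genes passed an adjusted p of 0.05 under most alternatives. The exceptions were the scale of *Gapdh* and *Polr2a* and the fit without the library labelled KO replicate 2. Elsewhere, the counts of 0 and the carriers' side of the threshold were kept because no gene passed. Scaled to the average of *Gapdh* and *Polr2a*, a scale on which the median log2 fold change of all genes was -0.30, 1 carrier, 1 family gene and 3 genes of the partner list (1 higher, 2 lower) passed an adjusted p of 0.05 by limma, *Slc4a2* among them at -0.42, and *Slc4a3* and *Slc26a6* turned to -0.19 and -0.23. *Slc4a3* turned to -0.065 under the length and GC correction, alone or with a replicate block, and *Slc26a6* to -0.0136 after rescaling to the same total. Of all genes, 0 passed an adjusted p of 0.05 on the deposited scale and 4703 on the control-gene scale, 29 of them higher. At an unadjusted p under 0.05, 2083 were higher and 1681 lower on the deposited scale, and 1259 and 2539 after rescaling to the same total. With the longest transcript in place of merged exons, the mean of *Slc4a7* over the 6 libraries was above that of *Slc4a4*, so that 3 of 5 carriers kept their place. When 1 library at a time was omitted, the number of carriers past the threshold was 0 to 1, and the log2 fold change of *Slc4a4* lay between -1.51 and -0.59. Only the fit without the library labelled KO replicate 2 gave a carrier past the threshold among these. That carrier was *Slc4a4*, by whose value the library was set apart. The causes of these changes were not tested.

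The labels number the mice 1 to 3 in both groups, but nothing says that a number marks a shared litter or day. Same-numbered libraries deviated together with correlations of 0.23, 0.07 and -0.03, so the numbers were not taken as pairs. With a replicate block, the log2 fold change of *Slc4a4* had an adjusted p of 0.144 and that of *Slc4a7* 0.157 from limma, and 0 of the 5 carriers passed 0.05. The planned count-model tests were not run. Depth limits little here for the carriers, whose counting error was at most 6.13%, and the number of mice limits more: 3 against 3 cannot go below p = 0.1 in an exact test.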

Other observations

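Among the genes of the partner list that were higher in KO at an unadjusted p under 0.05 were *Ahcyl1*, *Ahcyl2*, *Wnk1* and *Chp1*, named after their values were seen. *Ahcyl1* encodes IRBIT, a binding partner that activates NBCe1-B, and *Ahcyl2* its close relative. *Ahcyl1* was counted at 5027, 4291 and 4745 in KO and at 3839, 4244 and 3957 in WT replicates 1, 2 and 3. *Ahcyl2* was counted at 1061, 885 and 924 in KO and at 707, 850 and 731 in WT replicates 1, 2 and 3. In both, each KO library was above each WT library, as in 15.6% of all genes. The library labelled KO replicate 2 was nearest to WT in both and in *Chp1*. KO replicate 3 was nearest in *Wnk1*, *Slc8a1* and *Slc26a2*. The share of all genes with either order was not determined. The log2 fold changes of *Ahcyl1* and *Ahcyl2* were 0.22 (adjusted p = 0.132 from limma) and 0.33 (adjusted p = 0.115 from limma). After the length and GC correction they were 0.20 and 0.21, with groups that overlapped. Relative to the average of *Gapdh* and *Polr2a* they were -0.07 and 0.03, also with groups that overlapped.

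*Chp1*, which encodes a calcium-binding protein, was counted at 4725, 3996 and 4439 in KO and at 3665, 3819 and 3682 in WT replicates 1, 2 and 3, a log2 fold change of 0.23 (adjusted p = 0.115 from limma), and 0.27 after the correction. *Wnk1*, which encodes a kinase upstream of ion transporters, was counted at 25253, 23689 and 20605 in KO and at 15809, 18984 and 17937 in WT replicates 1, 2 and 3. Its log2 fold change was 0.40 (adjusted p = 0.0844 from limma), and after the correction it was 0.14 with groups that overlapped. Relative to the average of *Gapdh* and *Polr2a*, *Chp1* was at -0.06 and *Wnk1* at 0.10, and the groups of each overlapped. *Stk39*, of the same list, overlapped between the groups on the deposited scale, with a log2 fold change of 0.11 (adjusted p = 0.406 from limma). Among carbonic anhydrases, *Car14*, the most abundant of those listed, overlapped between the groups at 5020 to 5971 in KO and 4900 to 5580 in WT.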
